A study of Homo sapiens with 4 samples.

Results

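Genes of ribosome biogenesis and of RNA polymerase I were followed in BICR10 cells after silencing of YEATS2. They were taken by a rule on gene names, which was set with earlier results of these data known. A gene was a member if its symbol was UTP, NOP or RRP followed by a number, or POLR1 followed by a letter, or if it was one of NCL, NPM1, FBL, NOLC1, DKC1, GAR1, NHP2, BOP1, PES1, WDR12, RRN3, UBTF, BYSL and NIP7. This gave 46 of the 60623 genes in the files. Of these, 32 were found by the pattern and 14 by name, and 45 had enough counts to be tested. The untested member was UTP14C, which had 0 counts in all 4 libraries.

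BICR10 is a head and neck cancer cell line. Polyadenylated RNA was sequenced from 2 libraries of cells with a lentiviral control hairpin (shControl) and 2 with a lentiviral hairpin against YEATS2 (shYEATS2). All groups had thus received a lentivirus, and the study's methods describe selection of such cells with puromycin before harvest. The labels do not say whether the libraries of a group came from separate cultures or transductions. The study's methods and a checklist speak of biological replicates for its experiments, unless stated otherwise. Neither names these libraries, and the methods give more replicates than the 2 libraries a group here. The p-values therefore measure only the spread between these libraries, which may be technical. Which of the YEATS2 hairpins of the study each shYEATS2 library carried is not given in the labels.

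Ribosomes are built in the nucleolus. RNA polymerase I transcribes the ribosomal DNA into a long precursor, with UBTF holding the gene open and RRN3 bringing the polymerase to the promoter. Box C/D and box H/ACA ribonucleoproteins, guided by small nucleolar RNAs (snoRNAs), then modify this precursor, and large sets of assembly factors fold, cut and export the parts that become the small and the large subunit. Many of these genes are known targets of MYC, and the demand for ribosomes is high in growing tumour cells.

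YEATS2, a histone reader of the ATAC acetyltransferase complex, was at 66.1 and 66.7 CPM (counts scaled to the library size) in the shControl libraries and at 29.3 and 29.1 CPM in the shYEATS2 libraries. Its level was 43.95% of control (log2 fold change −1.19 ± 0.08 SE, adjusted p = 3.55e-21, edgeR's quasi-likelihood test), so the labels and the targeted gene point the same way. CPM here and below are scaled by TMM factors, and adjusted p-values are Benjamini-Hochberg values over the 17058 genes tested. Depth ranged from 39824898 to 47297970 counts in shControl and from 11334133 to 24072396 in shYEATS2, so depth and condition cannot be told apart. Cell type markers moved with the condition as well. The summed level of 10 fibroblast markers was 7547 and 7461 CPM in shControl and 2424 and 2289 CPM in shYEATS2, and 8 of the 9 tested were called lower. The 9 squamous epithelial markers summed to 210 and 212 CPM in shControl and to 144 and 134 CPM in shYEATS2, and of the 7 tested 5 were called lower and 1 higher. SFN made up most of the sum and did not pass (129.9 and 130.1 against 136 and 126 CPM), KRT6A fell from 55.0 and 58.2 to 1.38 and 2.21 CPM, and CDH1 rose from 0.353 and 0.318 to 2.84 and 2.12 CPM. TP63, KRT17, KRT14 and EPCAM were below 1.24 CPM in every library. The 4 endothelial markers summed to 35.5 and 36.4 CPM against 18.6 and 19.6 CPM, nearly all of it KDR, and the 4 leukocyte markers never exceeded 0.255 CPM in sum, with CD3E at 0 throughout. The part of these shifts in the values below was not tested, and fewer cells of a type cannot be told apart from less RNA per cell.

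Member genes moved by small amounts and in both directions after silencing of YEATS2. Of the 45 tested members, 16 rose and 5 fell at an adjusted p under 0.05, and 24 did not pass. The members that fell were NOP10, RRP1B, UTP11, UTP14A and UTP20. These are 35.6% and 11.1% of the tested members, beside 22.6% of all tested genes called higher and 23.6% called lower. In either direction, 46.7% of members and 46.2% of all genes were called. No member, called or not, changed by as much as 2-fold, and 41 of 45 had a log2 fold change under 0.5 in size. The median log2 fold change was 0.10 for the members and −0.01 for all tested genes, and the middle 50% of the members spanned a width of 0.35 on the log2 scale against 0.62 for all genes. Taking each shYEATS2 library against each shControl library, the member median stayed between 0.05 and 0.12.

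Both shYEATS2 libraries lay above both shControl libraries for 25 members and below them for 14, and the groups overlapped for 6. These are 55.6% and 31.1% of the members, beside 35.3% and 36.3% of all tested genes. DESeq2 called 12 members higher and 4 lower, with 13.9% and 16.5% of its tested genes called. With library totals alone in place of TMM factors, 26 members were higher and 3 lower, but 31.9% and 15.0% of all genes were then called and the median of all genes itself shifted to 0.13, with the member median at 0.23. In fits that leave out a library, its group holds 1 library, which is assumed to vary like the other group, so calls gained or lost there rest on the spread of that other group. Leaving out shYEATS2 replicate 1 added BOP1, FBL, NHP2, NOP14, RRP36, RRP8 and UBTF to the lower members. Leaving out shControl replicate 1 gave fewer lower members. In each of these fits, fewer of all tested genes were called lower. Without shYEATS2 replicate 2, NOP56 and POLR1D were also called lower and RRP1 and RRP9 higher, and without shYEATS2 replicate 1 UTP15 was also called higher. Fewer members, and fewer of all tested genes, were called higher when either shControl library was left out. In all 14 fits, RRN3, DKC1, GAR1, NOP58, NIP7, RRP12, UTP25 and UTP6 were called higher and UTP11, UTP14A and UTP20 lower, and all 21 called members kept their sign.

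**Figure D1:**
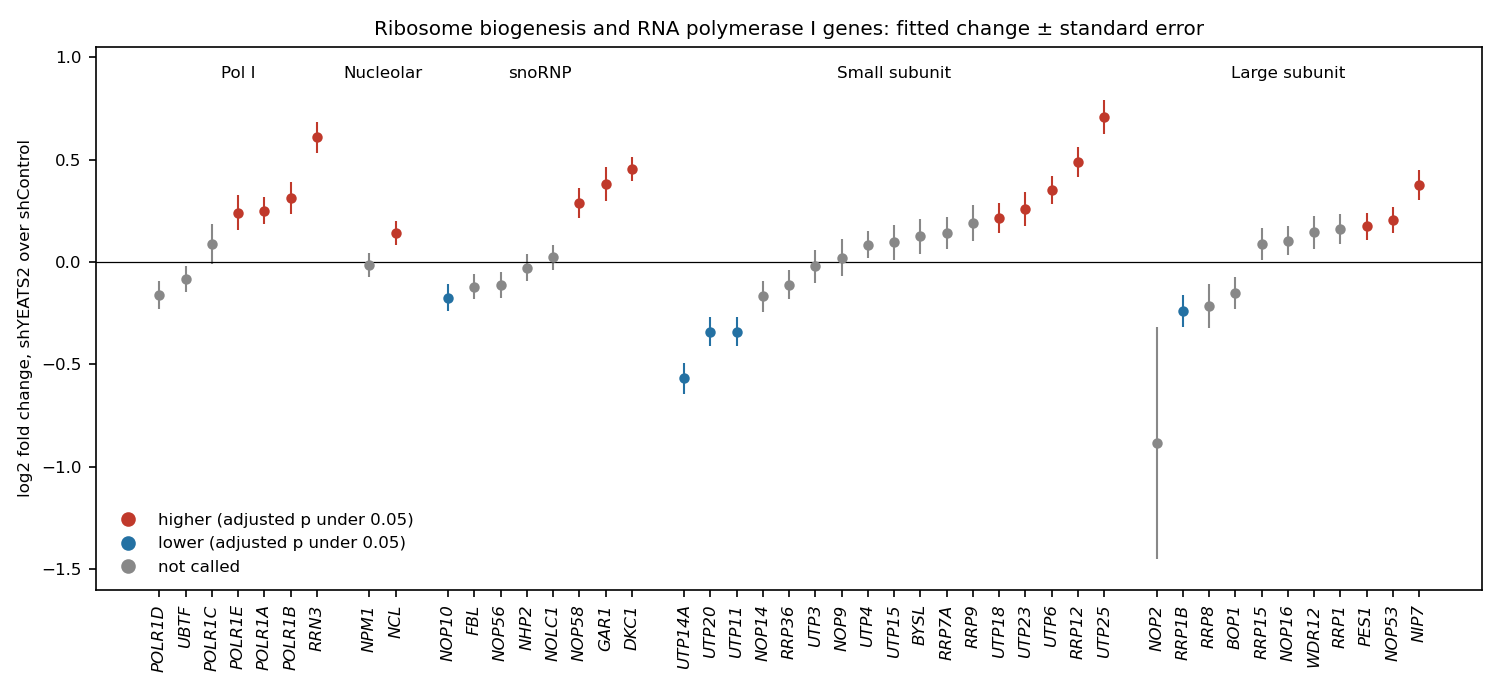
Log2 fold change (shYEATS2 over shControl, with its SE) of each of the 45 tested members, arranged by role in ribosome production. Colour gives the call at an adjusted p under 0.05; values ran from −0.88 for NOP2, which rests on few counts, to 0.71 for UTP25.

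In the group of RNA polymerase I and its initiation factors, all calls were of genes that rose. Of its 7 members, POLR1A, POLR1B, POLR1E and RRN3 rose (57.1%, beside the 22.6% of all tested genes), and POLR1C, POLR1D and UBTF did not pass, with a group median of 0.24 on the log2 scale. No member was called lower by edgeR's quasi-likelihood test or by DESeq2, beside 23.6% of all tested genes, and 1, POLR1D, was lower at an unadjusted p under 0.05. Other edgeR fits did call POLR1D lower (no filter on low counts, at least 10 counts in every library, the replicate block, and without shYEATS2 replicate 2) or UBTF (without shYEATS2 replicate 1). RRN3, which links the polymerase to its promoter factors, was at 50.7 and 61.1 CPM in shControl and at 81.9 and 88.9 CPM in shYEATS2. The lowest shYEATS2 library was thus above the highest shControl library, and the shControl libraries were further apart than the shYEATS2 libraries. RRN3 had the largest rise of this group (log2 fold change 0.61 ± 0.07 SE, adjusted p = 2.35e-09). It lies at chr16:15060033-15094311 on the minus strand of GRCh38, and 3 pseudogenes carry its name, so reads shared with these copies make its level uncertain.

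POLR1A encodes the largest catalytic subunit and POLR1B the second one, and together they form the active centre. POLR1A was at 114 and 108 CPM in shControl and 137 and 126 CPM in shYEATS2 (log2 fold change 0.25 ± 0.06, adjusted p = 0.000865). POLR1B was at 39.3 and 45.3 CPM against 54.1 and 50.4 CPM (0.31 ± 0.08, adjusted p = 0.000575). Groups did not overlap for either subunit. The call of POLR1A was lost without shControl replicate 2 (0.20), and its value was 0.17 without shYEATS2 replicate 1. That of POLR1B was lost without shControl replicate 1 (0.21). POLR1E, a subunit of the heterodimer that helps initiation, rose by 0.24 (adjusted p = 0.0167). Its call was lost in DESeq2, without the filter on low counts, and when either shControl library or shYEATS2 replicate 1 was left out. Its value was 0.38 with library totals alone.

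UBTF, the architectural factor of active ribosomal DNA, was at 128 and 128 CPM in shControl and at 124 and 116 CPM in shYEATS2. The shYEATS2 libraries lay below both shControl libraries, by a margin smaller than the distance between them. The difference did not pass (log2 fold change −0.08 ± 0.06, adjusted p = 0.301), turned to 0.05 with library totals alone, and passed as lower (−0.15) without shYEATS2 replicate 1. POLR1D, shared with RNA polymerase III, was at 74.1 and 70.7 CPM against 63.8 and 66.1 CPM, a difference of −0.16 ± 0.07 that narrowly missed the threshold (adjusted p = 0.0506). POLR1C, its partner in both enzymes, had a log2 fold change of 0.09.

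A further 3 subunits of RNA polymerase I stand in the files under older symbols and so fall outside the rule: CD3EAP for POLR1G, TWISTNB for POLR1F and ZNRD1 for POLR1H. POLR1G, which pairs with POLR1E, was at 22.3 and 22.3 CPM in shControl and at 40.8 and 38.7 CPM in shYEATS2, a larger rise than that of any member (log2 fold change 0.84 ± 0.08, adjusted p = 3.02e-13). Of its exonic bases, 49.8% lie under exons of ERCC1 on the opposite strand, so its level is uncertain if the counting ignored strand. POLR1F, of the stalk, rose from 63.6 and 70.2 CPM to 78.8 and 87.6 CPM (0.31 ± 0.07, adjusted p = 0.0002), and this call was lost without shControl replicate 1. POLR1H, a small subunit needed for RNA cleavage, had a value of −0.21 ± 0.13 that did not pass (adjusted p = 0.179), and 24.5% of its exonic bases lie under antisense exons. With these, 5 of the 8 subunits with a POLR1 name rose, with a median of 0.25. The enzyme also holds 5 subunits shared with the other polymerases, of which POLR2K rose (0.17), POLR2E (−0.24), POLR2F (−0.46) and POLR2L (−0.27) fell, and POLR2H (0.19, adjusted p = 0.0596) did not pass. Over all 13 subunits, 6 were higher (46.2%) and 3 lower (23.1%), beside 22.6% and 23.6% of all tested genes, with a median of 0.17.

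For the polymerases beside it, the 7 subunits of RNA polymerase II that it does not share with RNA polymerase I had a median of −0.04, with 2 higher and 2 lower. Among the latter, POLR2I had a log2 fold change of −0.43 and POLR2B, the second largest subunit, one of −0.30. The 11 such subunits of RNA polymerase III had a median of 0.16, with 3 higher and 1 lower, and POLR3D was the one with the largest rise (0.57 ± 0.08, adjusted p = 3.32e-09). Of all tested genes, 22.6% were called higher and 23.6% lower. The difference between the polymerases was not tested.

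**Figure D2:**
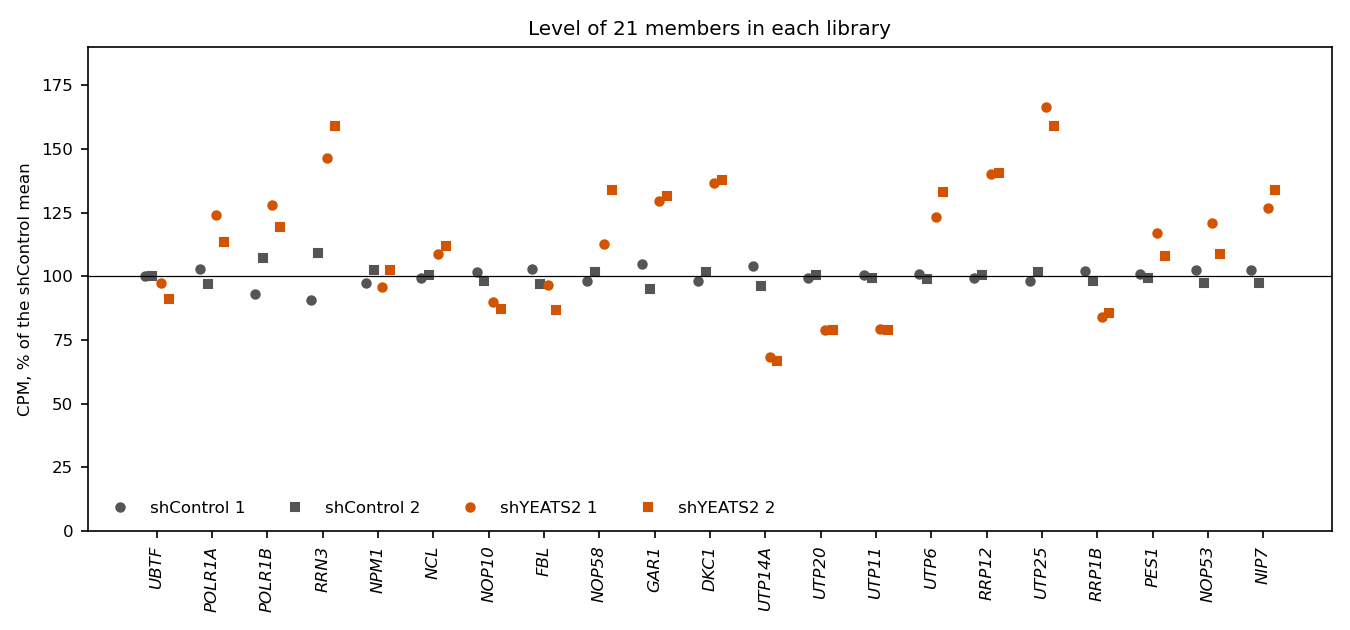
Level of 21 members in each of the 4 libraries, as a percentage of the gene's mean TMM-scaled CPM in shControl (linear axis), grouped by role. Each point is a library. For RRN3 both shYEATS2 points (from 81.9 and 88.9 CPM) sit above both shControl points (from 50.7 and 61.1 CPM). For NPM1 the groups overlap.

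The abundant nucleolar proteins moved little. NPM1 and NCL, which chaperone histones and preribosomal particles, together made up 44.1% of the summed CPM of the members in shControl. NPM1 was at 1550 and 1627 CPM in shControl and at 1523 and 1627 CPM in shYEATS2. Its groups overlapped, and its log2 fold change of −0.01 ± 0.06 did not pass (adjusted p = 0.877) and turned positive under other scalings, reaching 0.12 with library totals alone. As 49 pseudogenes carry the name of NPM1, its level is uncertain. NCL was at 668 and 675 CPM against 730 and 751 CPM, with no overlap, and rose by the smallest amount of any called member (0.14 ± 0.06, adjusted p = 0.0381). Its call was lost when either shControl library or shYEATS2 replicate 2 was left out, and without the filter on low counts (0.09).

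The members in sum were slightly higher in both shYEATS2 libraries than in either shControl library. Their summed level was 5108 and 5147 CPM in shControl and 5325 and 5406 CPM in shYEATS2, and without NPM1 and NCL it was 2890 and 2845 CPM against 3073 and 3027 CPM. As a share of the raw counts the members made up 0.490% and 0.488% in shControl and 0.560% and 0.562% in shYEATS2.

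Levels between genes can only be set side by side per length. Divided by the length of the canonical transcript in kilobases, NPM1 stood highest in shControl at 1204 CPM per kb, followed by NOP10 (201), FBL (176), NHP2 (173), NCL (171) and POLR1D (105). DKC1 (80.7) and NOP53 (80.9) were close to each other, and RRP8 (2.62), UTP25 (3.11) and NOP9 (4.22) were the lowest apart from NOP2. The median member stood at 18.9 CPM per kb in shControl and at 19.5 in shYEATS2. Calls were spread over a wide range of levels, and UTP25 near the bottom and DKC1 near the top both rose.

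**Figure D3:**
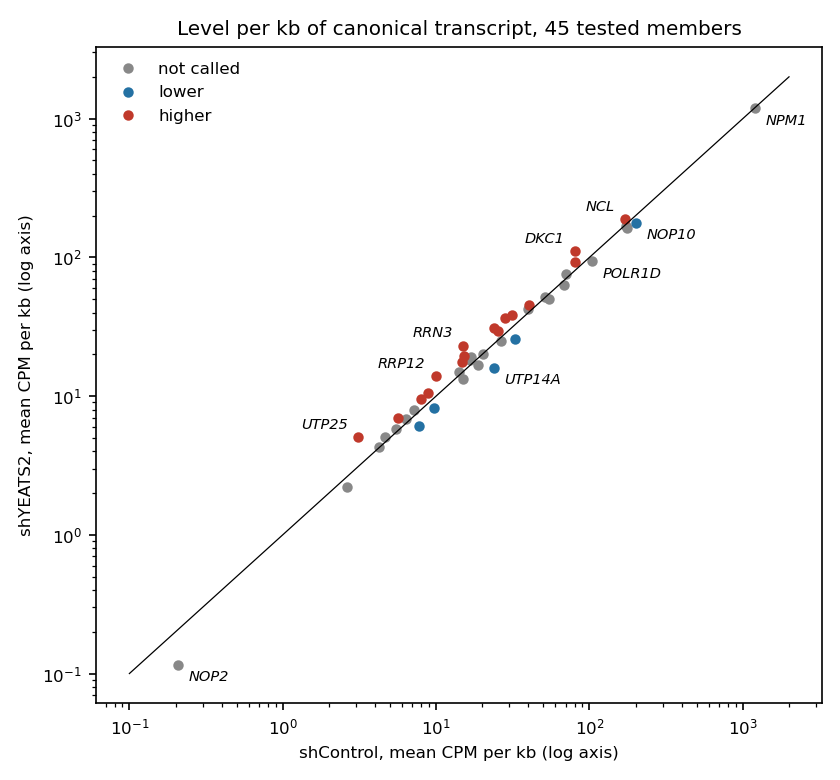
Mean level per kilobase of canonical transcript in shYEATS2 against shControl (CPM per kb, both axes log) for the 45 tested members, with the line of equal levels. Levels ran from NOP2 (0.209 in shControl and 0.116 in shYEATS2) to NPM1 (1204 and 1193), with UTP25 above the line (3.11 and 5.07) and UTP14A below it (23.7 and 16.0).

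The proteins of the snoRNA particles were called in both directions. Of 8 members, DKC1, GAR1 and NOP58 rose (37.5%), NOP10 fell (12.5%) and FBL, NOP56, NHP2 and NOLC1 did not pass, and the group median was −0.00. Of all tested genes, 22.6% were called higher and 23.6% lower, and 46.2% in either direction. DKC1 is the pseudouridine synthase of the H/ACA particle and a part of telomerase. It was at 196 and 202 CPM in shControl and at 272 and 274 CPM in shYEATS2, with close replicates and no overlap (0.46 ± 0.06, adjusted p = 1.42e-09). The gene lies at chrX:154762742-154777689 on the plus strand.

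GAR1, a further protein of the H/ACA core, was at 30.0 and 27.1 CPM in shControl and at 37.0 and 37.6 CPM in shYEATS2 (0.38 ± 0.08, adjusted p = 0.00011). NOP10, the small protein that sits beside DKC1 in the same core, went the other way, with 104 and 100.2 CPM against 91.4 and 89.0 CPM (−0.17 ± 0.07, adjusted p = 0.0237). Neither gene's groups overlapped. The fall of NOP10 did not pass with library totals alone (−0.04), in DESeq2 (−0.18), at equal depth (−0.15) or when shControl replicate 1 (−0.16) or shControl replicate 2 (−0.21) was left out. NHP2, the remaining core protein, overlapped between groups (−0.03 ± 0.06), and 28.1% of its exonic bases lie under exons of the opposite strand, which matters if the counting ignored strand.

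In the box C/D particle, NOP58 was at 60.8 and 63.0 CPM in shControl and at 69.8 and 82.8 CPM in shYEATS2 (0.29 ± 0.07, adjusted p = 0.000695). The shYEATS2 libraries were apart from each other by more than the shControl libraries, but both were above them. Its value was 0.17 without shYEATS2 replicate 2. FBL, the methyltransferase of the particle, was at 204 and 192 CPM against 191 and 172 CPM and did not pass (−0.12 ± 0.06, adjusted p = 0.108), with a value of 0.01 under library totals alone and a lower call without shYEATS2 replicate 1 (−0.22). NOP56, the close relative and partner of NOP58, did not pass either (−0.11 ± 0.06, adjusted p = 0.146), and NOLC1, a chaperone of these particles, had a value of 0.02.

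The ratios of 6 pairs of partners in a complex or a step were formed within each library, where the scaling drops out. These pairs were chosen for the difference in their values, so the ratios are a description. The ratio of DKC1 to NOP10 was 1.89 and 2.02 in shControl and 2.97 and 3.08 in shYEATS2, 1.55-fold higher on average. The ratio of NOP58 to NOP56 was 0.457 and 0.497 against 0.601 and 0.664, and that of GAR1 to NHP2 was 0.218 and 0.206 against 0.263 and 0.307. RRN3 to UBTF went from 0.397 and 0.478 to 0.659 and 0.764, a 1.63-fold difference. POLR1A to POLR1D was at 1.54 and 1.52 against 2.15 and 1.90, and PES1 to BOP1 at 2.03 and 1.98 against 2.48 and 2.59. In all 6 pairs both shYEATS2 libraries were above both shControl libraries, a pattern that the choice of pairs favours. An exact two-sided permutation test gave p = 0.333 for each, the smallest value that 2 against 2 libraries allow. For pairs chosen by their values it decides nothing.

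**Figure D4:**
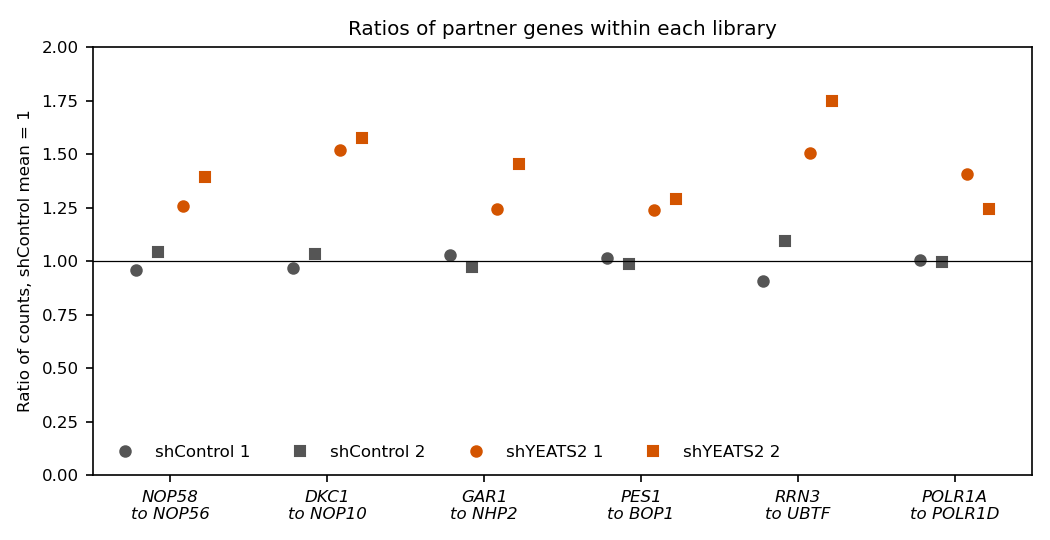
Ratio of the counts of 2 partner genes in each library, divided by the pair's mean ratio in shControl, for 6 pairs chosen after their values were seen. Each point is a library, and in every pair both shYEATS2 points lie above both shControl points. Before this division, DKC1 to NOP10 was 1.89 and 2.02 in shControl and 2.97 and 3.08 in shYEATS2.

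Small subunit factors held both the largest rise and the clearest falls. Of 17 tested members, RRP12, UTP6, UTP18, UTP23 and UTP25 rose (29.41%), UTP11, UTP14A and UTP20 fell (17.65%) and 9 did not pass, with a median of 0.10. These shares stand beside 22.6% of all tested genes called higher and 23.6% called lower. UTP25, a factor of the small subunit processome related to helicases, was at 25.9 and 26.9 CPM in shControl and at 43.9 and 42.0 CPM in shYEATS2 (0.71 ± 0.08, adjusted p = 3.45e-11), which is 163% of control. RRP12, an export factor of preribosomes, was at 43.3 and 43.8 CPM against 61.1 and 61.2 CPM (0.49 ± 0.07, adjusted p = 5.7e-08). UTP6, a protein of the early processome, was at 66.6 and 65.4 CPM against 81.3 and 87.8 CPM (0.35 ± 0.07, adjusted p = 1.49e-05). All 3 had libraries that agreed closely within shControl and lay wholly apart between the groups. UTP18 (0.21, adjusted p = 0.013) and UTP23 (0.26, adjusted p = 0.00762) rose as well. Neither call held in DESeq2, without the filter on low counts, or when either shControl library was left out.

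UTP14A, which activates the helicase that releases the U3 snoRNA, fell the most of all called members. It was at 61.8 and 57.2 CPM in shControl and at 40.6 and 39.6 CPM in shYEATS2, which is 67.5% of control (−0.57 ± 0.08, adjusted p = 3.04e-09). UTP20, a very large scaffold protein, was at 69.0 and 69.9 CPM against 54.9 and 54.7 CPM (−0.34 ± 0.07, adjusted p = 4.71e-05). UTP11, a further processome protein, was at 66.4 and 65.8 CPM against 52.3 and 52.1 CPM (−0.34 ± 0.07, adjusted p = 5.9e-05). The replicates of UTP20 and UTP11 lay within 1 CPM of each other in each group, and the groups were apart in all 3 genes. With library totals alone the value was −0.21 for both UTP20 and UTP11, and at equal depth it was −0.21 for UTP20, each still called. UTP14A lies at chrX:129906121-129929761, UTP20 at chr12:101280105-101386618 and UTP11 at chr1:38009258-38024820, all on the plus strand.

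UTP14C, a copy of UTP14A without introns, had no counts, which allows up to 3 counts in each library. All of its exonic bases are shared on the same strand with ALG11, so reads there would not be given to either gene alone, and ALG11 itself had 554 and 409 counts in shControl and 214 and 125 in shYEATS2. The zero is therefore not a measurement of UTP14C expression. Among the members that did not pass, RRP9, a protein of the U3 particle, had a value of 0.19 (adjusted p = 0.0667) and NOP14, a scaffold of the small subunit, one of −0.17 (adjusted p = 0.0617). The others, UTP3, UTP4, UTP15, NOP9, RRP7A, RRP36 and BYSL, ranged from −0.11 to 0.14.

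Most large subunit factors did not pass the test, and neither did 9182 of the 17058 genes tested. Of 11 tested members, NIP7, NOP53 and PES1 rose (27.3%), RRP1B fell (9.1%) and 7 did not pass, with a median of 0.10. Of all tested genes, 22.6% were called higher and 23.6% lower. NIP7, needed for late steps of precursor processing, was at 49.98 and 47.5 CPM in shControl and at 61.7 and 65.2 CPM in shYEATS2 (0.38 ± 0.07, adjusted p = 1.37e-05). NOP53, which recruits the exosome, was at 125 and 118 CPM against 147 and 132 CPM (0.20 ± 0.06, adjusted p = 0.00633). Both genes' groups were apart, by a margin in NOP53 smaller than the distance between its shYEATS2 libraries. The call of NOP53 was lost without shControl replicate 2 (0.16) or shYEATS2 replicate 1 (0.11), and without the filter on low counts (0.16). Of the exonic bases of NIP7, 18.4% lie under exons of COG8 on the other strand, and 3 pseudogenes carry its name.

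PES1, BOP1 and WDR12 form the PeBoW complex. PES1 was at 92.5 and 91.0 CPM in shControl and at 107 and 98.9 CPM in shYEATS2 (0.17 ± 0.07, adjusted p = 0.0238). Its call was lost in DESeq2, at equal depth (0.15) and without the filter on low counts (0.13). It was also lost without shControl replicate 1 (0.18), shControl replicate 2 (0.15) or shYEATS2 replicate 1 (0.09). BOP1 (−0.15, adjusted p = 0.104) and WDR12 (0.14, adjusted p = 0.129) did not pass. RRP1B, a nucleolar partner of a protein phosphatase, was at 49.98 and 48.1 CPM against 41.2 and 42.0 CPM (−0.24 ± 0.08, adjusted p = 0.00767) and lost its call with library totals alone (−0.10), at equal depth (−0.14) and without shControl replicate 1 (−0.22). Its relative RRP1 had a value of 0.16 that did not pass (adjusted p = 0.065).

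NOP2, an RNA methyltransferase, had the lowest fold change of all members but could not be measured well. It had 25 and 21 counts in shControl and 7 and 4 in shYEATS2, whereas the lowest count of any other tested member was 157. Its log2 fold change was −0.88 ± 0.57 (adjusted p = 0.204). Over its exons, 54.4% of the bases are shared on the same strand with a read-through gene that had 0 counts in all libraries, so reads from there could be given to neither gene. NOP16 (0.10), RRP15 (0.09) and RRP8 (−0.21) did not pass.

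Beyond the members, 155 other genes of ribosome biogenesis were in the files and 154 were tested. Of these, 61 rose and 21 fell, beside the 22.6% and 23.6% of all tested genes given above, and their median log2 fold change was 0.10. Large subunit factors outside the rule had 29 of 61 higher and 4 lower (median 0.16), small subunit factors 16 of 44 higher and 7 lower (0.07), processing nucleases 9 of 25 higher and 5 lower (0.07), snoRNP assembly factors 3 of 11 higher (0.02), and partners of RNA polymerase I 4 of 13 higher and 5 lower (0.05). The list as a whole was not tested. Fewer of its genes, and fewer of all tested genes, were called lower without shControl replicate 2.

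Of these genes, RPP25, WDR43, NOL12 and IMP3 were called with a larger change than any called member. They and the others named here were picked after their values had been seen, and are not a complete ranking. WDR43, a small subunit processome protein, was at 54.0 and 54.4 CPM in shControl and at 104 and 106 CPM in shYEATS2 (0.95 ± 0.07, adjusted p = 9.59e-20). IMP3, which joins the U3 snoRNA to the precursor, was at 47.8 and 45.4 CPM against 26.7 and 25.5 CPM (−0.83 ± 0.08, adjusted p = 2.13e-13). Both belong to the processome, as UTP25 and UTP14A do, and in each of these genes the groups were apart. NOL12 fell (−0.94 ± 0.33, adjusted p = 0.0149) on 74 and 74 counts in shControl and 26 and 9 in shYEATS2. This call of NOL12 did not hold in DESeq2 (−0.98, adjusted p = 0.174). LYAR (0.66) and GTPBP4 (0.64), a GTPase of the large subunit, and PNO1 (0.59), a late factor of the small subunit, rose as well, while DIMT1 (−0.70) and NAT10 (−0.46), which methylate and acetylate small subunit RNA, fell. Among the partners of RNA polymerase I, TAF1A (0.64), of the promoter selectivity factor, and TCOF1 (0.43), a nucleolar scaffold, rose. MTREX (−0.54), the helicase of the nuclear exosome, fell. RPP25 (−1.01) and POP1 (−0.63) fell and RPP30 (0.61) rose, all of them proteins of RNase P and RNase MRP.

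**Figure D5:**
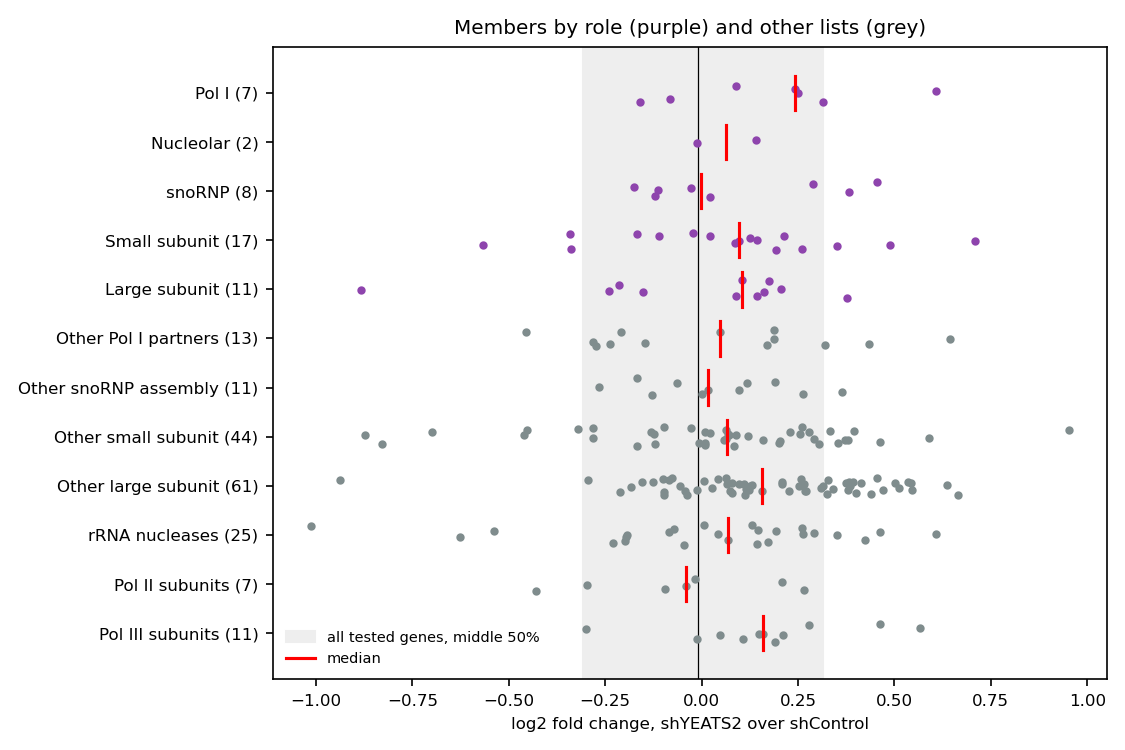
Log2 fold change (shYEATS2 over shControl) of every tested gene in each role group of the members and in the other gene lists, with the median of each. Medians ran from −0.04 for RNA polymerase II subunits to 0.24 for the members of RNA polymerase I, while single genes reached from −1.01 (RPP25) to 0.95 (WDR43).

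Features that the rule did not use were then read from the annotation. The members lie on 21 chromosomes. Of the 46, 6 contain annotated snoRNA genes, 16 in all, with 5 in NOP56, 4 in NOP58, 3 in NCL, 2 in DKC1 and 1 each in NOP53 and POLR1C. Of these hosts, NOP58, NCL, DKC1 and NOP53 rose and NOP56 and POLR1C did not pass. Called higher were 35.6% of all tested members and 22.6% of all tested genes. The calls of NCL and NOP53 were lost in some fits, and the hosts were not tested as a set. More than 10% of the exonic bases lie under exons of the opposite strand in 9 members, for which a count made without strand would mix both genes.

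The promoters were searched for the E-box CACGTG, the letters bound by MYC and related factors, in RefSeq windows from 250 bases before to 50 bases after each start site (GRCh38.p14). The motif is its own reverse complement, so both strands were covered. Windows were found for 39 members, and 13 of these (33.3%) held it, beside 8.78% of 27305 genes with a window and 12.3% of the tested ones. Of the other ribosome biogenesis genes with a window, 37 of 133 (27.8%) held it. No window was listed for RRP12, BOP1, POLR1E, NOLC1, RRP1B, NOP58 and UTP23.

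Called members of both directions held an E-box, with 4 of 12 members that rose, 3 of 4 that fell and 6 of 22 that did not pass. The stretches around it are shown for the called members, 5′ to 3′ on the strand of the gene with the E-box in capitals, so that the sites of genes that rose and fell can be compared.
UTP25, which rose, at chr1:209827974-209828003, plus strand: agtcagcgagccCACGTGcttgtgttgact
GAR1, which rose, at chr4:109815781-109815810, plus strand: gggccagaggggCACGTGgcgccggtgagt
UTP18, which rose, at chr17:51260445-51260474, plus strand: gggagtgctggtCACGTGgcaagaggctgc
PES1, which rose, at chr22:30591880-30591909, minus strand: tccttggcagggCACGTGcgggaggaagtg
UTP14A, which fell, at chrX:129905914-129905940, plus strand: accttgggcCACGTGgaaaccaggggc
UTP20, which fell, at chr12:101280083-101280112, plus strand: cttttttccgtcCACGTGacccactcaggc
NOP10, which fell, at chr15:34343130-34343159, minus strand: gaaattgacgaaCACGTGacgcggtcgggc
In UTP20 and NOP10 the motif began 10 and 11 bases before the start site, in UTP18 and UTP14A 89 and 241 bases before it, and in UTP25, GAR1 and PES1 within the first 32 bases after it. UTP18 and NOP10 held a further copy each. Matches in the letters of a window do not show that a factor was bound, and the motif stood in members that rose, fell and did not pass.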

How the data were processed

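Stranded mRNA libraries of BICR10 cells (2 shControl, 2 shYEATS2) were sequenced as pairs of 150 bp reads, aligned to GRCh38 with STAR and counted with HTSeq. The authors deposited these as raw counts per Ensembl gene, without normalization. The annotation release and the strand setting of the counting are not given in the sources used here. The lines of reads given to no gene (15.3 to 16.5% of each library) and of ambiguous reads (4.31 to 4.61%) were kept out of library sizes and tests. No other columns of per-sample values were present.

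Counts were filtered with filterByExpr (17058 genes), scaled with TMM (factors from 0.950 to 1.05) and tested by robust quasi-likelihood fits (glmQLFit, glmQLFTest) in edgeR 4.0.16 and R 4.3.3, over all 4 libraries with condition as the only term. Genes with a Benjamini-Hochberg adjusted p under 0.05 were called, with no minimum fold. Each ± after a log2 fold change is its SE. The common biological coefficient of variation was 4.95%, and replicates differed by more than counting noise (chi-square per degree of freedom of 5.95 and 5.39). Methods were tested on simulated data first. Alternatives were DESeq2 1.42.0, limma-voom (limma 3.58.1), other scaling factors, other filters, libraries thinned to 11334133 counts, a stricter threshold of 0.01, the replicate number as a block, and each library left out in turn (the lone library of a group is then assumed to vary like the other group). With 2 libraries a group, no outlier test could be made.

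Members and lists were chosen with earlier results of these data known. Values per library are given for POLR1A, POLR1B, UBTF, RRN3, FBL, DKC1, NCL, NPM1 and, in each role group, up to 3 called members with the largest rise and up to 3 with the largest fall. Positions and overlaps came from GENCODE release 44, where 60295 of the 60623 genes and all 46 members were found, and promoter windows from RefSeq (GRCh38.p14). Gene counts of reads can be shared with pseudogenes or antisense genes, which was not corrected.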

Additional observations from a re-analysis of the deposited data

How the results depend on the processing

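The call of 16 higher and 5 lower members depended on the scaling, the filter and single libraries. The main fit called 3857 of all tested genes higher and 4019 lower, with medians of 0.10 for the members and −0.01 for all genes. Library totals alone gave 26 higher and 3 lower members, beside 5441 and 2567 of all genes. The medians were then 0.23 for the members and 0.13 for all genes. No filter on low counts gave 10 and 9 members, beside 3074 and 4338 of all genes, with medians of 0.048 and −0.056. Thinning to equal depth gave 15 and 3 members, beside 3189 and 3289 of all genes. Leaving out each library in turn gave 9 to 17 higher and 3 to 12 lower members, and 12 to 25 lower genes among the other ribosome biogenesis genes. Library totals alone also gave 11 instead of 21 lower genes among the other ribosome biogenesis genes, and DESeq2 gave 2393 higher genes in all. Signs turned for UBTF (0.052) and FBL (0.014) with library totals alone, and for NPM1 with library totals alone (0.12), upper-quartile factors (0.0002), thinning (0.0082) and single libraries left out (from −0.066 to 0.0205), each from a value that had not passed. Causes of these changes were not tested.

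Whether libraries with the same replicate number were paired is not given in the labels. The replicate difference in shControl had a correlation of −0.018 with that in shYEATS2, which cannot settle it. With the replicate number as a block, 8 members were lower and 16 higher, beside 4142 and 3870 of all tested genes. NOP2 rests on few counts, and an exact permutation test of 2 against 2 libraries cannot go below 0.333.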
